A study of Mus musculus with 24 samples.

Results

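The 10 genes described here are expressed by the epithelium of the choroid plexus, the secretory tissue inside the brain ventricles. They were chosen by name, for being known genes of this epithelium, and are Ttr, Enpp2, Sostdc1, Folr1, Kl, Prlr, Aqp1, Clic6, Slc4a5 and Otx2. They are 10 of 53465 genes listed in the counts, and all 10 were among the 18425 genes that passed the filter on low counts. RNA was sequenced from the brains of 12 mice, 6 of the strain CAST/EiJ (CAST) and 6 of the strain WSB/EiJ (WSB), both inbred from wild mice. The question behind the comparison is which genes differ between strains whose infarcts differ in size when the middle cerebral artery is blocked, and no surgery or treatment is named for these animals. Sex, age and dissected region are not given, and tissue is given as brain for both strains. Levels are in CPM, the reads of a gene per a fixed large number of reads in genes, scaled by the trimmed mean of M-values (TMM), and each value is the sum of lanes 5 and 6 of an animal.

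Choroid plexus epithelium secretes cerebrospinal fluid and forms the barrier between the blood and this fluid. It releases transthyretin and autotaxin into the fluid, carries folate across the barrier, and moves water and ions through channels and transporters in its apical and basal membranes. In a sample of whole tissue, fewer epithelial cells and less RNA per cell cannot be told apart.

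Reads in genes numbered 32982569 to 46513232 per animal, and each of the 10 genes had reads in all 12 animals. The animals CAST_142 and WSB_100 had the lowest Ttr level of their strain and, on the log2 scale, the most distant Ttr levels from the median of all 12. In CAST_142, 8 listed genes of cerebellar neurons (Cbln1 and Pcp2 among them at 0 in every animal) summed to 1798 CPM, against 145 to 208 CPM in the other CAST animals and 136 to 178 CPM in WSB animals, and 9 striatal genes summed to 373 CPM, against 958 to 1954 CPM in the other CAST animals and 1122 to 1907 CPM in WSB animals. Results that these animals move are given with and without them, and the part of brain region in the results was not tested. Cbln1 and Pcp2 lie wholly inside other genes, so their 0 does not show that the RNA was absent.

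The sequence before the start of a gene was looked at for members that moved together over the animals and for members that did not. RefSeq promoter sequence (GRCm38.p6) was at hand for Kl, Slc4a5, Aqp1, Prlr and Otx2, with 10 start sites in all. Kl and Slc4a5, which followed Ttr closely, are shown with Aqp1 and Otx2, which over all 12 animals did not, as the 250 bases before the start site. Capitals mark the letters TAATCC, the core motif of the Otx2 protein, or their reverse complement GGATTA.
Kl promoter, chr5:150952357-150952606, plus strand: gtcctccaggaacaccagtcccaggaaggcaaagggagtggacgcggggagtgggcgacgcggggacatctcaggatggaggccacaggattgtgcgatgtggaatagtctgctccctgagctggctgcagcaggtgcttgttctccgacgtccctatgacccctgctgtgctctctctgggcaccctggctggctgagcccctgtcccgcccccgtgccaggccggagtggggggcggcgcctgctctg
Slc4a5 promoter, chr6:83237125-83237374, plus strand: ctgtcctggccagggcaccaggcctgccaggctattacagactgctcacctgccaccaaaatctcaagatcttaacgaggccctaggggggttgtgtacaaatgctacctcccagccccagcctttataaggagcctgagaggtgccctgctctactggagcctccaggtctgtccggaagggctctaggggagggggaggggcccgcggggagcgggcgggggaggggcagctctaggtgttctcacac
Aqp1 promoter, chr6:55336049-55336298, plus strand: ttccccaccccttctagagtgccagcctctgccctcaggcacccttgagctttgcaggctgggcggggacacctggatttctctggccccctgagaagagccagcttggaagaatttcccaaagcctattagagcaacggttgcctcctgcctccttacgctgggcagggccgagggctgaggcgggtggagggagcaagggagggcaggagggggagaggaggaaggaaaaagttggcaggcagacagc
Otx2 promoter, chr14:48665110-48665359, minus strand: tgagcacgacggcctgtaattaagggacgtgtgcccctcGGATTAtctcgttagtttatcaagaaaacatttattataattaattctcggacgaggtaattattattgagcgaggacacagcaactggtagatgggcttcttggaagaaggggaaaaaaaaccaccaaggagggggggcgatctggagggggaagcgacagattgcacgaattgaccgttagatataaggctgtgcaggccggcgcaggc
The motif was searched on both strands and found in 1 of the 10 member promoters, the one of Otx2 shown, where it starts at position -211 from the start site. Over all 32851 promoters in the table, 6.25% held it in the same window. The Kl window is rich in G and C (66.8%, with 13 CpG pairs) and the Slc4a5 window has 62.8% with 6 CpG pairs. The Aqp1 window is at 62% with 5 CpG pairs, where the median promoter has 52.4% and 6 CpG pairs. For Otx2 the window shown is the one with the motif, at 48.4% with 14 CpG pairs. The other Otx2 windows are at 42%, 49.2% and 53.6%, with 6, 8 and 9 CpG pairs. These letters are a description of the windows.

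Per kilobase of exon, Ttr, which encodes the carrier of thyroxine and retinol-binding protein transthyretin, stood far above the other members, at 307 ± 159.8 CPM per kilobase over the 12 animals (SD). Enpp2, which encodes the lysophosphatidic acid producing enzyme autotaxin, came next at 51.6 ± 17.9 CPM per kilobase. Ttr was above Enpp2 in 11 of 12 animals, WSB_100 being the exception. Clic6, a member of the chloride intracellular channel family, was at 4.79 ± 2.58 and Sostdc1, a secreted inhibitor of Wnt and BMP signals, at 3.43 ± 1.58 CPM per kilobase. Clic6 was higher in 7 of 12 animals, namely every WSB animal and, of CAST, only CAST_203 (3.69 against 3.67 CPM per kilobase). Kl (1.78 ± 0.923) and Aqp1 (1.75 ± 0.591) did not differ beyond their spread over the 12 animals, with Kl higher in 6 of 12. Those were every WSB animal but WSB_100 and, of CAST, only CAST_142. Otx2 (1.04 ± 0.621) and Slc4a5 (0.772 ± 0.353) did not differ beyond their spread either, with Otx2 higher in 7 of 12. Folr1 (0.305 ± 0.215) and Prlr (0.131 ± 0.0562 CPM per kilobase) were lowest. The counts may hold intronic reads, so levels per exon length are approximate. Folr1 overlaps the body of Anapc15, and 32.2% of its exon bases lie outside the bodies of other genes, while the same share is 17.9% for Prlr. Whether the overlapped bases are exon bases of the other gene was not measured. Reads that match more than 1 gene went to a counter that names no gene, with 11.1% to 16.5% of the deposited counts per animal. Folr1 and Prlr may therefore be undercounted for their full exon length, and their place as lowest is not settled by these values.

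**Figure D1:**
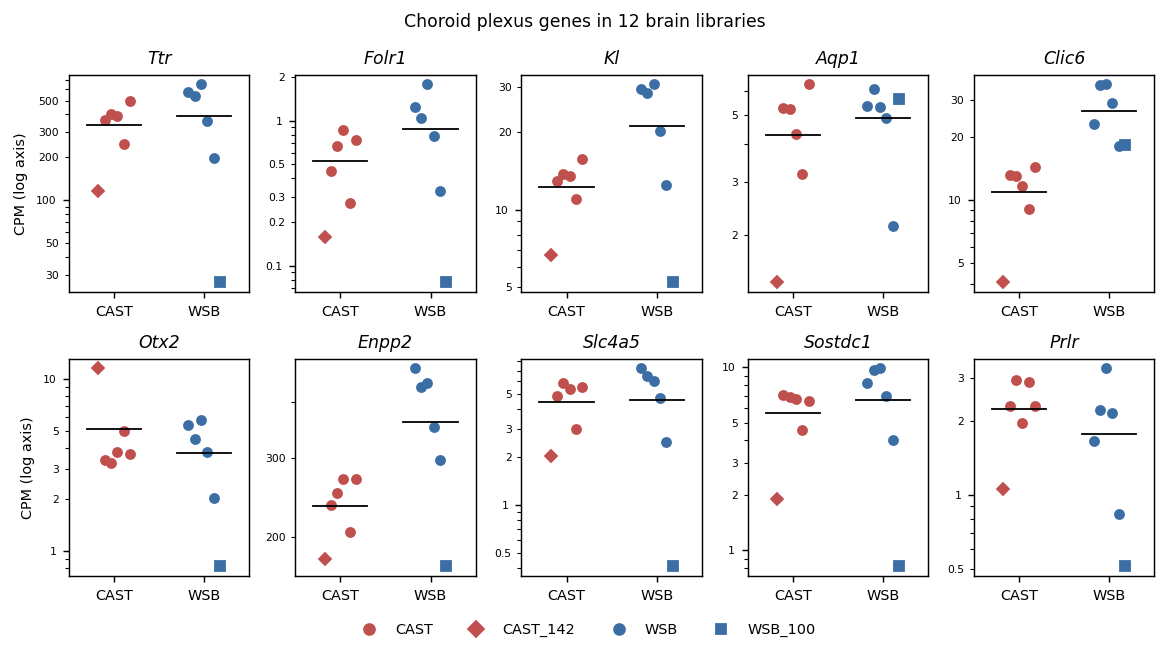
Level of each of the 10 genes in each animal (CPM, log axis), CAST left and WSB right; bars are strain means, and CAST_142 and WSB_100 have their own symbols. Ttr spans 26.5 to 649 CPM in WSB animals, and Clic6 is the only one of the 10 whose strain ranges are apart.

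Among the 10 genes, Clic6 and Enpp2 were lower in CAST and none was higher when strain alone was compared (edgeR quasi-likelihood test with Benjamini-Hochberg adjustment over all genes), nor did any have a positive change at an unadjusted p under 0.05. These 2 calls of 10 stand beside 42.7% of all tested genes called, 21.2% being lower and 21.5% higher in CAST, so the share called was below that of all genes. The median log2 fold change of the 10 was -0.23, and that of all tested genes was 0.0046. With CAST_142 and WSB_100 left out, Kl joined them, and 3 of 10 were lower, beside 46.6% of all genes called. DESeq2 also called Clic6 and Enpp2, beside 44.8% of all genes.

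The genes of secreted proteins come first. The highest level over the lowest was 4.29 in CAST and 24.5 in WSB for Ttr, and 1.504 in CAST and 2.74 in WSB for Enpp2. Ttr was at 115, 377 and 495 CPM (lowest, median and highest animal) in CAST and at 26.5, 451 and 649 CPM in WSB. The lowest animals were CAST_142 and WSB_100, and the strain ranges overlap over most of their length. The log2 fold change of Ttr was -0.22 ± 0.55 (SE, adjusted p = 0.773 by edgeR). Enpp2 (chromosome 15, 54838901 to 54952892, GRCm38) was at 179, 243 and 269.9 CPM in CAST and at 173, 391 and 474 CPM in WSB. All WSB animals but WSB_100 were above all CAST animals. Enpp2 was lower in CAST by a log2 fold change of -0.62 ± 0.20 (SE, adjusted p = 0.0253 by edgeR). This call was lost without CAST_142, CAST_202, WSB_120, WSB_135 or WSB_138, with adjusted p of 0.0529 to 0.0587. Enpp2 is also expressed by oligodendrocytes, and 12 oligodendrocyte genes summed to 3170 to 4130 CPM in CAST against 2319 to 5497 CPM in WSB, with WSB_100 lowest. Sostdc1 was at 1.92, 6.65 and 7.04 CPM in CAST and at 0.819, 7.59 and 9.87 CPM in WSB. Its ranges overlap, and its log2 fold change was -0.23 ± 0.45 (SE, adjusted p = 0.711 by edgeR).

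The receptors and co-receptors were not called over all 12 animals. Kl (chromosome 5, 150952607 to 150993817), the co-receptor for fibroblast growth factor 23 that is also shed into the cerebrospinal fluid, was at 6.69, 13.2 and 15.8 CPM in CAST and at 5.22, 24.2 and 30.6 CPM in WSB. The 4 highest WSB animals were above all CAST animals, and the lowest of all 12 was WSB_100. Its log2 fold change was -0.78 ± 0.35 (SE, adjusted p = 0.0943 by edgeR), and without CAST_142 and WSB_100 it was -0.85 (adjusted p = 0.00886). Without WSB_100 alone Kl was called as well, at -0.98 (adjusted p = 0.00605), beside 41.5% of all genes. Folr1, the folate receptor of this epithelium, was at 0.158, 0.556 and 0.864 CPM in CAST and at 0.0768, 0.916 and 1.78 CPM in WSB. These levels rest on 3 to 59 reads per animal, and the ranges overlap, with a log2 fold change of -0.73 ± 0.55 (SE, adjusted p = 0.308 by edgeR). Prlr, the prolactin receptor, was at 1.06, 2.31 and 2.94 CPM in CAST and at 0.512, 1.92 and 3.29 CPM in WSB. The CAST range lies inside that of WSB, and the log2 fold change was 0.34 ± 0.37 (SE, adjusted p = 0.498 by edgeR).

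Of the channel and transporter genes, Clic6 was lower in CAST. Clic6 (chromosome 16, 92485736 to 92541243) was at 4.07, 12.4 and 14.4 CPM in CAST and at 18.2, 26 and 35.6 CPM in WSB. Every WSB animal was above every CAST animal, WSB_100 included, and 27.1% of all tested genes have such separate ranges in either direction. The log2 fold change was -1.28 ± 0.27 (SE, adjusted p = 0.00181 by edgeR), and it was called without each animal in turn. Of the Clic6 exon bases 96.0%, and of its body 79.0%, lie outside other genes. Aqp1, the water channel of the apical membrane, was at 1.40, 4.78 and 6.30 CPM in CAST and at 2.14, 5.32 and 6.06 CPM in WSB, where the low animal was WSB_169. The ranges overlap, and the log2 fold change was -0.19 ± 0.31 (SE, adjusted p = 0.662 by edgeR). Slc4a5, a sodium bicarbonate cotransporter, was at 2.03, 5.10 and 5.82 CPM in CAST and at 0.410, 5.32 and 7.21 CPM in WSB. The WSB range holds the whole CAST range, and the log2 fold change was -0.03 ± 0.47 (SE, adjusted p = 0.962 by edgeR).

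Otx2, a homeobox transcription factor needed for choroid plexus development, was at 3.28, 3.74 and 11.5 CPM in CAST and at 0.819, 4.11 and 5.76 CPM in WSB. The highest of all 12 animals was CAST_142, in which the other 9 genes were at their lowest of the CAST animals, and the lowest was WSB_100. The log2 fold change was 0.47 ± 0.43 (SE, adjusted p = 0.416 by edgeR), and it was -0.16 (adjusted p = 0.620) without these animals. CAST_142 also held the high sum of cerebellar genes given above, and the part of this in its Otx2 level was not tested. Of the Otx2 exon bases 96.0%, and of its body 68.3%, lie outside other genes, and where Otx2 and its antisense gene Otx2os1 overlap their reads cannot be told apart without the strand setting.

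Over animals, 5 of the other 9 genes followed Ttr. In a model with strain and Ttr, Folr1, Slc4a5, Sostdc1, Kl and Enpp2 each had a positive slope on Ttr that was called (edgeR quasi-likelihood test, adjusted over 18424 genes), and none had a negative one. Only 65 genes, or 0.353% of those tested, had a called slope, 28 of them positive (0.152%) and 37 negative (0.201%). Folr1 rose by 1.07 ± 0.11 on the log2 scale per doubling of Ttr (SE, adjusted p = 6.78e-04), where 1 is change in proportion. Slc4a5 rose by 0.86 ± 0.05 (adjusted p = 8.88e-06) and Sostdc1 by 0.81 ± 0.05 (adjusted p = 1.15e-05). Kl rose by 0.57 ± 0.03 (adjusted p = 3.88e-06) and Enpp2 by 0.31 ± 0.02 (adjusted p = 1.71e-05). Slopes of the other 4 were not called, at 0.53 ± 0.10 for Prlr (adjusted p = 0.0577; 0.0311 without CAST_202 and 0.0489 without WSB_169), 0.27 ± 0.08 for Clic6 (adjusted p = 0.249), 0.21 ± 0.21 for Otx2 (adjusted p = 0.728) and 0.12 ± 0.12 for Aqp1 (adjusted p = 0.736).

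CAST_142 and WSB_100 had the lowest Ttr levels of all 12 animals. Without them 7 genes of all those tested (0.0378%) had a called slope, and 3 of these were members. Kl rose by 0.72 (adjusted p = 8.79e-04), Enpp2 by 0.39 (adjusted p = 0.0360) and Slc4a5 by 0.87 (adjusted p = 0.0389) on the log2 scale per doubling of Ttr. The slopes of Folr1 (1.34, adjusted p = 0.0818) and Sostdc1 (0.70, adjusted p = 0.0565) were then not called. Without WSB_100 alone, Aqp1 had a called slope of 0.92 (adjusted p = 0.00449), beside 0.0855% of all genes, and without CAST_142 alone Otx2 had one of 0.56 (adjusted p = 0.0172), beside 1.07% of all genes.

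**Figure D2:**
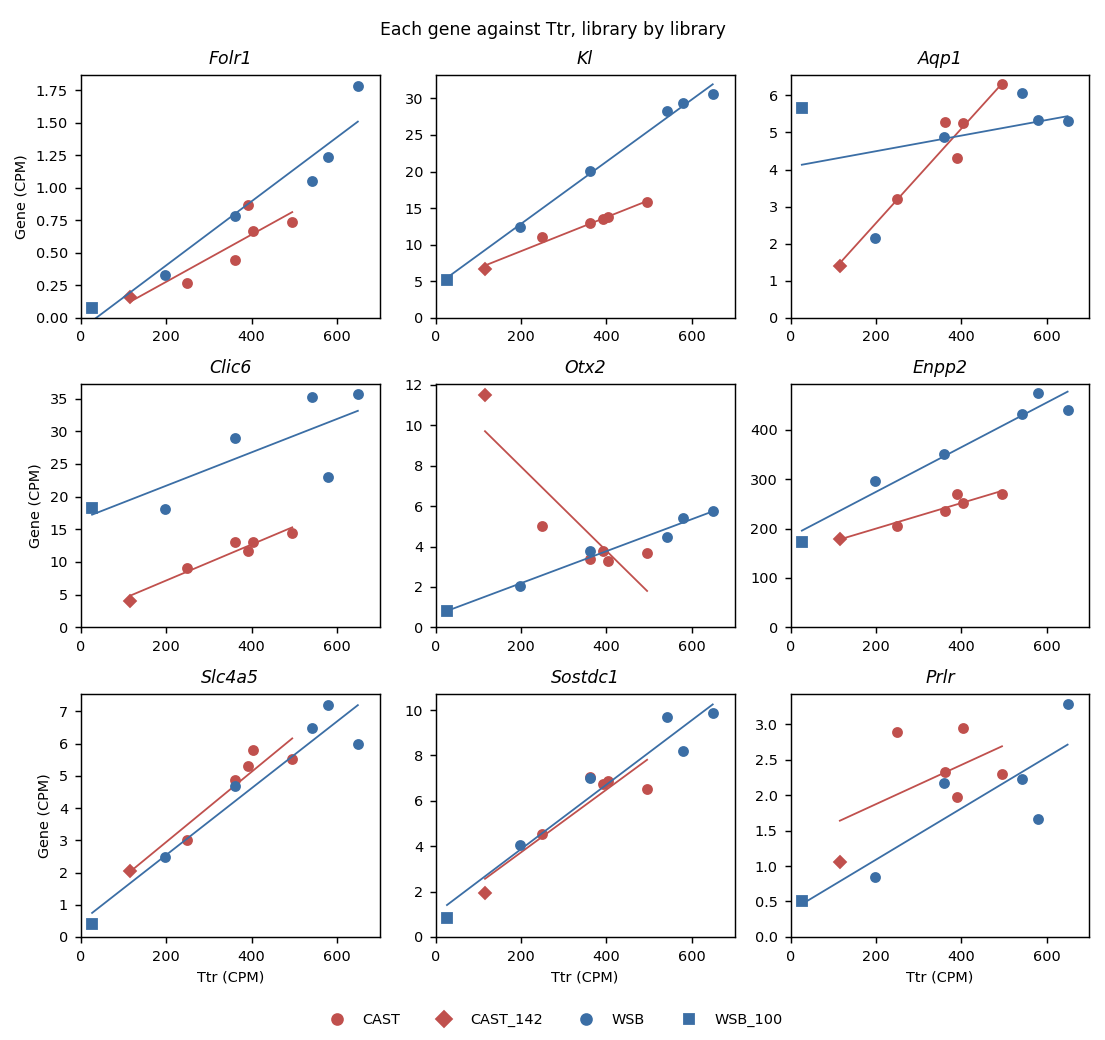
Level of 9 genes (CPM) against the level of Ttr (CPM) in each animal, with a straight line per strain fitted by least squares; CAST_142 and WSB_100 have their own symbols. For Kl and Enpp2 the CAST line is flatter than the WSB line (2.32 against 4.25 and 25.9 against 45.2 CPM per 100 CPM of Ttr), for Slc4a5 the lines of the strains lie close together, as do those of Sostdc1 with CAST_142 included, while CAST_142 stands far above the other CAST animals for Otx2 and WSB_100 keeps a high Aqp1 level at the lowest Ttr level.

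Correlations with Ttr were computed on log2 CPM after centring on strain means, with exact permutation of animals within strains, for 9 genes. Pearson r was 0.991 for Slc4a5 (exact permutation p = 1.10e-04; Spearman rho 0.951, p = 1.81e-04), 0.990 for Kl (p = 1.93e-06, the smallest that these permutations can give; rho 0.979, p = 1.93e-06) and 0.988 for Sostdc1 (exact permutation p = 1.83e-04; rho 0.881, p = 0.00356). It was 0.983 for Enpp2 (exact permutation p = 3.86e-05; rho 0.944, p = 1.18e-04) and 0.967 for Folr1 (p = 1.35e-05; rho 0.923, p = 1.60e-04). These are the ranks 2, 3, 5, 8 and 14 among 18424 genes, of which 34 (0.185%) had r above 0.9 and whose median r was 0.0027. Prlr was at 0.872 (exact permutation p = 0.00303; rho 0.783, p = 0.0145) and Clic6 at 0.691 (p = 9.22e-04; rho 0.692, p = 0.0167). Otx2 was at 0.557 (exact permutation p = 0.144; rho 0.490, p = 0.130) and Aqp1 at 0.367 (p = 0.161; rho 0.385, p = 0.146). The 12 points share the TMM scaling, and no p here is adjusted.

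CAST_142 and WSB_100 are the animals farthest from the median of Ttr in log2 CPM, and r was computed again without them. Kl then had the highest r of all genes, at 0.987, followed among the members by Enpp2 (0.956), Slc4a5 (0.950), Folr1 (0.943), Sostdc1 (0.939) and Aqp1, whose r was 0.919 (exact permutation p = 0.00278). Clic6 was at 0.796, Otx2 at 0.686 (exact permutation p = 0.0976) and Prlr at 0.648 (p = 0.143). The slope of Prlr on Ttr was 0.56 without these animals and 0.53 with them, and neither was called. Within a strain, the r of Kl with Ttr was 0.997 in CAST and 0.989 in WSB (exact permutation p = 0.00139 in each, n = 6). That of Slc4a5 was 0.969 in CAST (exact permutation p = 0.00694, n = 6) and 0.995 in WSB (exact permutation p = 0.00694, n = 6). For each strain, r was computed again without the 2 animals farthest from its median of Ttr (CAST_142 and CAST_202, WSB_100 and WSB_169). For Kl it was then 0.999 in CAST and 0.991 in WSB (exact permutation p = 0.0417 in each). That of Slc4a5 was 0.550 in CAST (exact permutation p = 0.458) and 0.801 in WSB (p = 0.292). For Sostdc1 it was -0.92 in CAST and 0.853 in WSB (exact permutation p = 0.125 in each). Over all 6 animals the r of Sostdc1 was 0.968 in CAST and 0.996 in WSB. Its positive r within CAST thus rests on CAST_142 and CAST_202, and the negative value comes from the few animals left. In CAST the r of Folr1 fell from 0.934 to 0.501 and that of Enpp2 from 0.954 to 0.671, while in WSB they were then at 0.920 and 0.915. The r of Clic6 fell from 0.986 to 0.689 in CAST and from 0.726 to 0.184 in WSB. That of Prlr fell from 0.747 to 0.041 in CAST and from 0.905 to 0.308 in WSB. In CAST alone the r of Aqp1 was 0.987 (exact permutation p = 0.00556, n = 6) and in WSB alone 0.089 (p = 0.876, n = 6). For Otx2 it was -0.96 in CAST (exact permutation p = 0.0222, n = 6) and 0.985 in WSB (p = 0.00139, n = 6). With the same animals left out, the r of Otx2 was 0.401 in CAST and 0.939 in WSB, and that of Aqp1 was 0.698 in CAST and 0.536 in WSB, so the negative relation of Otx2 in CAST rests on CAST_142 and CAST_202.

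**Figure D3:**
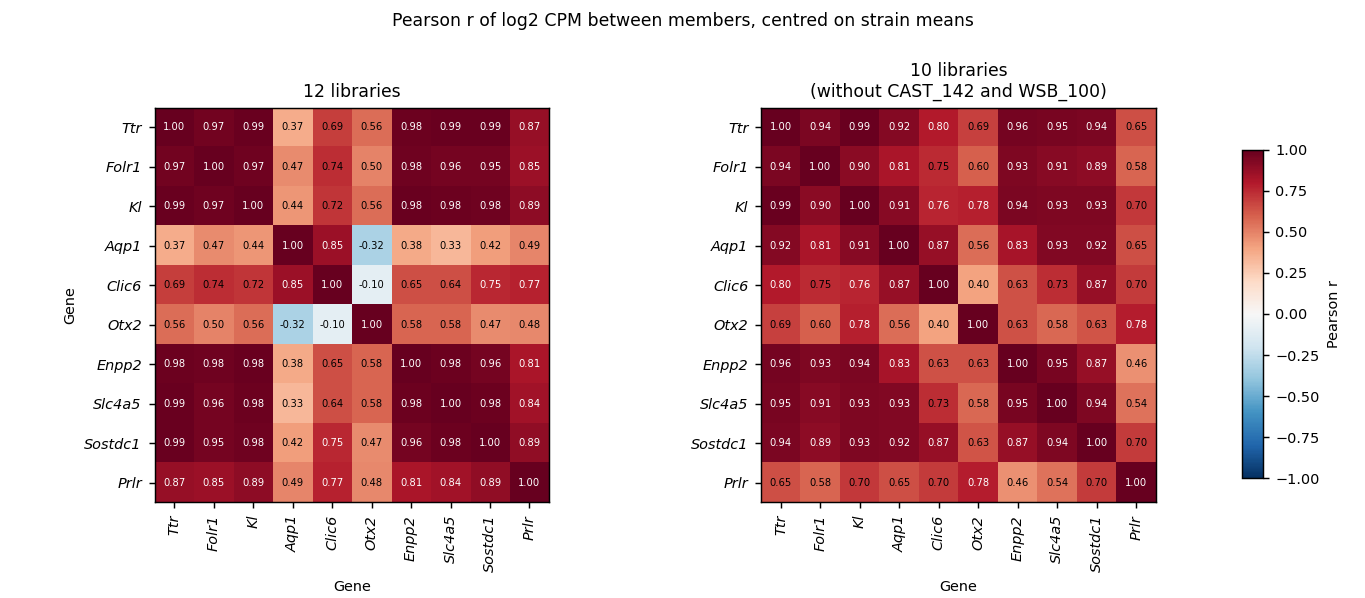
Pearson r of log2 CPM, centred on strain means, for each pair of the 10 genes over 12 animals (left) and over 10 animals without CAST_142 and WSB_100 (right); red is positive and blue negative. The 15 pairs within Ttr, Folr1, Kl, Enpp2, Slc4a5 and Sostdc1 lie between 0.954 and 0.991 on the left and between 0.874 and 0.987 on the right.

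The 45 pairs of the 10 genes had a median r of 0.766, and of 0.815 without CAST_142 and WSB_100. Ttr, Folr1, Kl, Enpp2, Slc4a5 and Sostdc1 formed a block, chosen after its values were seen, whose 15 pairs lay between 0.954 and 0.991. Aqp1 was closest to Clic6, with an r of 0.852, and its r with Otx2 was -0.32. Without CAST_142 and WSB_100, Aqp1 was closest to Slc4a5 (0.928), its r with Clic6 was 0.869, and its r with Otx2 was positive, at 0.562. Pairs with Otx2 lay between -0.32 and 0.584 over 12 animals and between 0.399 and 0.782 without these 2. Ttr was at 26.5 CPM in WSB_100, Slc4a5 at 0.410, Sostdc1 at 0.819, Folr1 at 0.0768, Otx2 at 0.819 and Prlr at 0.512 CPM, and these, Kl and Enpp2 were all at their lowest of the 12 animals, while Aqp1 at 5.66 CPM and Clic6 at 18.3 CPM were within the range of the other WSB animals.

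The slope on Ttr differed between the strains for 3 of the 9 genes when each strain was given its own, beside 19.9% of all genes. This test was chosen after the values were seen. The slope of Otx2 was lower in CAST than in WSB by a difference of -1.50 ± 0.12 (log2 per doubling of Ttr, SE, adjusted p = 3.98e-05 by edgeR), that of Aqp1 higher by 1.01 ± 0.25 (adjusted p = 0.0165) and that of Clic6 higher by 0.69 ± 0.16 (adjusted p = 0.0114). Without CAST_142 none of all genes was called by edgeR (0.0%), 2119 of 18592 having an unadjusted p under 0.05, and the differences were -1.12 for Otx2 (adjusted p = 0.129), 0.94 for Aqp1 (adjusted p = 0.572) and 0.47 for Clic6 (adjusted p = 0.662). Without WSB_100, Otx2 was called among the members (-1.71, adjusted p = 3.00e-04, beside 12.6% of all genes), and Aqp1 (0.25, adjusted p = 0.448) and Clic6 (0.42, adjusted p = 0.180) were not. Without both animals Otx2 was the 1 member called (-1.34, adjusted p = 0.0291, beside 1.42% of all genes). The slopes of Kl and Enpp2 differed between strains by 0.0062 ± 0.075 and -0.014 ± 0.053, which were not called.

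With Ttr in the model, Enpp2, Kl and Clic6 were lower in CAST. These 3 of 9 stand beside 43.6% of all genes called in the same model, 21.6% being lower. Enpp2 was lower by a log2 fold change of -0.61 ± 0.05 (SE, adjusted p = 6.91e-07 by edgeR), Kl by -0.70 ± 0.07 (adjusted p = 2.44e-06) and Clic6 by -1.35 ± 0.21 (adjusted p = 2.21e-04). The standard error of Kl was 0.35 with strain alone and 0.07 with Ttr in the model, and that of Enpp2 was 0.20 and 0.05, while their fold changes hardly moved. All 3 were called without each animal in turn and without CAST_142 and WSB_100, at -0.60 for Enpp2, -0.64 for Kl and -1.08 for Clic6 without both, beside 45.2% of all genes. Folr1 was at -0.50 ± 0.20 (adjusted p = 0.0645), and without CAST_201 it was called (-0.64, adjusted p = 0.0173), and the other 5 were not called, with Slc4a5 at 0.15 ± 0.10 (adjusted p = 0.259) and Sostdc1 at -0.12 ± 0.10 (adjusted p = 0.367). With the mean of the other members, or of the second choroid plexus list, in place of Ttr, Slc4a5 (0.65 and 0.61) and Prlr (0.80 and 0.76) were called higher in CAST beside the same 3 lower genes. Kl was then at -0.45 and -0.37, Enpp2 at -0.48 and -0.44 and Clic6 at -1.27 and -1.17. The mean of the other members leaves out Ttr and holds Clic6, Kl and Enpp2, themselves lower in CAST given Ttr. A reference that is lower in CAST moves genes that rise with it toward higher in CAST. The higher calls against it are thus not separate from those 3 genes. For these other references the share of all genes called is not at hand.

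**Figure D4:**
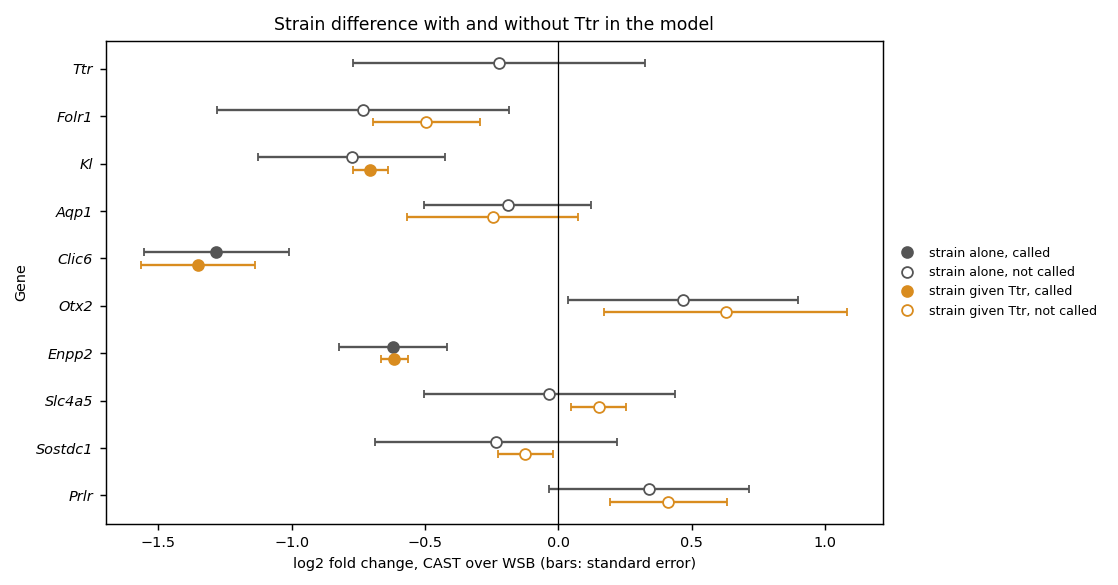
Log2 fold change of CAST over WSB for the 10 genes, with strain alone in the model (grey) and with strain and Ttr (orange); bars are standard errors and filled points are called at an adjusted p under 0.05. For Kl the point moves from -0.78 to -0.70 while its bar shortens from 0.35 to 0.07.

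On the plain scale, Kl gained 2.32 ± 0.15 CPM per 100 CPM of Ttr in CAST and 4.25 ± 0.17 CPM in WSB (SE of a straight line over 6 animals each), from intercepts of 4.46 ± 0.53 CPM in CAST against 4.35 ± 0.75 CPM in WSB. Enpp2 gained 25.9 ± 3.98 CPM in CAST against 45.2 ± 5.26 CPM in WSB, from intercepts of 148 ± 14.3 CPM in CAST against 184 ± 23.7 CPM in WSB. The lines of Slc4a5 had nearly the same rise, at 1.09 ± 0.18 CPM in CAST against 1.04 ± 0.15 CPM in WSB, and those of Sostdc1 rose by 1.38 ± 0.31 CPM in CAST against 1.42 ± 0.17 CPM in WSB. Without CAST_142 the rise of Sostdc1 in CAST was 0.838 ± 0.465 CPM, so the closeness of its lines depends on that animal. These lines were drawn after the values were seen and were not tested.

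As a ratio to Ttr in the same library, which assumes change in proportion, Clic6 was at a mean log2 ratio of -4.91 ± 0.14 in CAST and -3.40 ± 1.47 in WSB (SD, 6 animals per strain), and every CAST animal was below every WSB animal. The difference of -1.52 has an exact two-sided permutation p of 0.00216, the smallest that 6 against 6 allows, and 2.4% of all genes have ratios to Ttr with separate strain ranges. In the same way Kl was at -4.69 ± 0.32 in CAST and -3.91 ± 0.78 in WSB (SD, 6 animals per strain; exact permutation p = 0.0152), and Folr1 at -9.37 ± 0.34 in CAST and -8.76 ± 0.35 in WSB (exact permutation p = 0.0173). Enpp2 differed by -0.74 (exact permutation p = 0.195), and the ratio in WSB_100 was far above the other WSB animals. Without WSB_100 the differences were -0.27 for Enpp2, -0.47 for Kl and -0.94 for Clic6. Slc4a5, Sostdc1, Otx2, Prlr and Aqp1 differed by 0.14, -0.18, 0.38, 0.32 and -0.45, with exact permutation p of 0.355 to 0.970. Without WSB_100 the difference of Prlr was 0.69 (exact permutation p = 0.0411), that of Otx2 0.66 and that of Aqp1 0.28, and without CAST_142 that of Otx2 was -0.17. Against the mean of the other members in place of Ttr, Prlr differed by 0.79 (exact permutation p = 0.00216), Otx2 by 0.85 (p = 0.0346), Slc4a5 by 0.58 (p = 0.0260) and Folr1 by -0.25 (p = 0.519). None of these p is adjusted, and the share of all genes under 0.05 by this test is not at hand. The mean of the other members leaves out Ttr and holds Clic6, Kl and Enpp2, whose mean ratios to Ttr were lower in CAST. A lower reference raises the difference of a gene set against it. The positive differences against this mean are thus not separate from those 3 genes. Without CAST_142 and WSB_100, the strain ranges of Kl (-0.58) and Clic6 (-0.96) were separate (exact permutation p = 0.00794, the smallest for 5 against 5), beside 7.8% of all genes, while Folr1 differed by -0.49 (exact permutation p = 0.0635) and Enpp2 by -0.48 (p = 0.0556).

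Of 42 further genes of choroid plexus epithelium, 37 were tested. Kcnj13, Slc16a8 and Igf2 are listed at 0 in every animal. The whole body of Kcnj13 lies inside another gene, and 0.052% of the Igf2 exon bases lie outside other genes. The 0 of Kcnj13 and Igf2 therefore does not show that their RNA was absent. Between strains 3 were higher in CAST, 5 were lower and 29 were not called, beside 42.7% of all genes called, with a median log2 fold change of -0.13 (all tested genes 0.0046). Lower were Lbp, the lipopolysaccharide-binding protein (-1.81 ± 0.17, SE, adjusted p = 1.15e-06 by edgeR), Steap1 (-1.67 ± 0.21, adjusted p = 2.24e-05), the tight junction gene Cldn1 (-0.73 ± 0.22, adjusted p = 0.0156), Sulf1 (-0.63 ± 0.23, adjusted p = 0.0401) and Pcolce2 (-0.33 ± 0.11, adjusted p = 0.0309). Higher were Slc31a1, a copper importer (0.56 ± 0.13, adjusted p = 0.00277), Mdfic (0.56 ± 0.12, adjusted p = 0.00206) and Col8a2, a collagen chain (0.62 ± 0.20, adjusted p = 0.0209). Of the exon bases of Slc31a1, 2.73% lie outside other genes. The call of Sulf1 was lost without CAST_201, CAST_202, WSB_100, WSB_135, WSB_138 or WSB_147 (adjusted p of 0.0560 to 0.0765) and that of Pcolce2 without CAST_170, CAST_200, CAST_201, CAST_203, WSB_120, WSB_138 or WSB_169 (adjusted p of 0.0511 to 0.0659). The 4 most abundant of the list, Slc4a10, Trpm3, Vat1l and Slc12a2, were not called, Trpm3 being called lower (-0.29, adjusted p = 0.0465) without CAST_142. Slc4a10, a sodium bicarbonate transporter that neurons also express, was at 375 ± 18.3 CPM in CAST against 369.7 ± 28.6 CPM in WSB (SD, 6 animals per strain).

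Of these 37 genes, 10 had a called positive slope on Ttr and none a negative one, beside 0.353% of all genes with a called slope. The median slope of the 37 was 0.15, and that of all tested genes was close to 0. Medians were as high in lists of oligodendrocyte (0.19), striatal (0.17), hypothalamic and thalamic (0.39) and blood genes (0.20). They were lower for endothelial (0.029), meningeal (-0.0084) and cerebellar genes (-1.05). A positive median is thus not particular to choroid plexus genes. Prr32 (0.97 ± 0.11, SE, adjusted p = 0.00150), the tight junction gene Cldn2 (0.86 ± 0.06, adjusted p = 1.71e-05), the membrane protein gene Tmem72 (0.85 ± 0.05, adjusted p = 7.62e-06) and Kcne2, a potassium channel subunit (0.84 ± 0.08, adjusted p = 3.15e-04), had the steepest. Krt18, F5 (coagulation factor V), Trpv4 (a cation channel), Calml4, Msx1 and Col8a1 followed, at 0.68 to 0.29. Without WSB_100 alone, Cldn2, Tmem72, F5 and Trpv4 were called, and Prr32 (1.01, adjusted p = 0.0650), Kcne2 (0.79, adjusted p = 0.0617), Krt18 (0.66, adjusted p = 0.113) and Msx1 (0.29, adjusted p = 0.135) were not. The call of Calml4 (adjusted p = 0.0437) was lost without any single animal other than CAST_142, CAST_202 and WSB_169 (adjusted p of 0.0615 to 0.255), and that of Col8a1 (adjusted p = 0.0387) without CAST_200, CAST_201, WSB_100, WSB_120, WSB_135 or WSB_147 (adjusted p of 0.0626 to 0.222). Without CAST_142 and WSB_100, Cldn2 (0.83, adjusted p = 0.0360), F5 (0.65, adjusted p = 0.0360) and Tmem72 (0.79, adjusted p = 0.0455) were called, and with the members Kl, Enpp2 and Slc4a5 they make up 6 of the 7 genes called then. Given Ttr, F5 (0.38, adjusted p = 0.00658) and Tmem72 (0.37, adjusted p = 0.00788) were among 6 genes higher in CAST, and Kcne2 (-0.45, adjusted p = 0.0307) was among 7 lower, beside 43.6% of all genes.

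**Figure D5:**
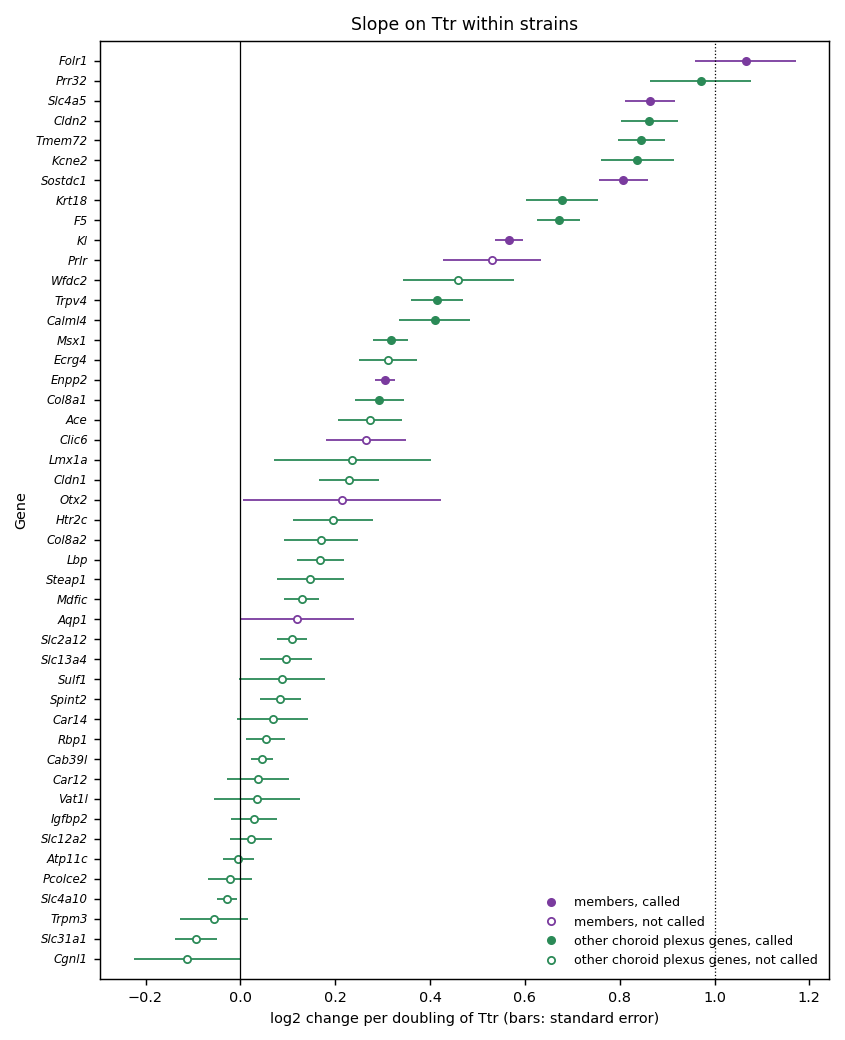
Slope on Ttr (log2 change per doubling of Ttr, bars are standard errors) for 9 of the 10 genes (purple) and 37 further choroid plexus genes (green); filled points are called at an adjusted p under 0.05. Called slopes run from 0.29 for Col8a1 to 1.07 for Folr1, where the dotted line at 1 marks change in proportion to Ttr.

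The genes outside the 10 with the strain-centred pattern most like Ttr over 12 animals, among those with a mean log2 CPM of at least 1 and an established symbol, were Tmem72 (Pearson r 0.990), Cldn2 (0.985), F5 (0.984), Myo7a (0.979), Msx1 (0.976), Drc7 (0.958), Trpv4 (0.935), Rtkn (0.931), Prkcq (0.929) and Wdr86 (0.928). Of these 10, Tmem72, Cldn2, F5, Msx1 and Trpv4 are on the list of further choroid plexus genes. Without CAST_142 and WSB_100, r was 0.937 to 0.967 for Tmem72, Cldn2, F5 and Trpv4, and 0.612 to 0.875 for the other 6.

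Markers of neighbouring tissues were looked at for the same slope on Ttr. Of 13 tested ependymal genes none was called by edgeR, but 8 had a positive slope at an unadjusted p under 0.05, and the median slope of the list was 0.13. The share of all genes at that unadjusted threshold is not at hand, so the unadjusted counts in this paragraph are given without a reading. Of 14 tested meningeal genes none was called, with 0 positive and 1 negative at an unadjusted p under 0.05, and of 12 oligodendrocyte genes Opalin was (0.26 ± 0.05, SE, adjusted p = 0.0404 by edgeR). Summed levels of the ependymal list were 158 to 199 CPM in CAST against 94.7 to 155 CPM in WSB, with CAST_142 and WSB_100 lowest in their strains. Between strains 3 of 13 ependymal genes were higher in CAST and 1 was lower, beside 21.5% and 21.2% of all genes. Most of the gap in the ependymal sums is 1 gene, Rsph1, at 57.3 ± 11.99 CPM in CAST against 6.24 ± 1.51 CPM in WSB (SD, 6 animals per strain), and the median log2 fold change of the list was -0.10. In the meningeal list Ogn, which lies wholly inside another gene, is at 0 in every animal. The list summed to 247 to 416 CPM in CAST against 435 to 614 CPM in WSB, with 2 of 14 genes higher in CAST and 6 lower. Most of that gap is Ptgds, at 235 ± 54.3 CPM in CAST against 376 ± 57.9 CPM in WSB. Their part in the strain differences and slopes above was not tested.

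Genes that act with the members were taken as 6 lists, and none of the 51 tested genes had a called slope on Ttr by edgeR. At an unadjusted p under 0.05, 2 were positive and 5 negative, and the share of all genes at that threshold is not at hand. Between strains 8 were higher in CAST, 9 were lower and 34 were not called, beside 42.7% of all genes. For the thyroid hormone and retinol carried with transthyretin, 1 of 10 was higher, namely the retinol importer gene Stra6 (0.45 ± 0.13, SE, adjusted p = 0.0146 by edgeR), and Slco1c1, a thyroxine transporter (-0.32 ± 0.08, adjusted p = 0.00763), and Lrp2 were lower. Among the folate genes, Shmt1 (0.78 ± 0.09, adjusted p = 9.59e-06) and the reduced folate carrier Slc19a1 (0.37 ± 0.06, adjusted p = 1.34e-04) were higher, and Folr2 was lower. Of 9 genes around klotho, the receptors Fgfr2 (1.63 ± 0.20, adjusted p = 1.68e-05), Fgfr3 (0.42 ± 0.05, adjusted p = 1.25e-05) and Fgfr4 were higher and none was lower, and 97.0% of Fgfr2 exon bases but 41.8% of its annotated body lie outside other genes. Of 8 genes of lysophosphatidic acid, the product of autotaxin, the phosphatases Plpp2 (1.20 ± 0.20, adjusted p = 2.83e-04) and Plpp3 (0.15 ± 0.05, adjusted p = 0.0278) were higher and no receptor was called. Of 7 genes of prolactin signalling, Socs2, a feedback inhibitor (-0.44 ± 0.06, adjusted p = 8.07e-05), was lower. Of 10 Wnt and BMP genes, Bmp6 (-0.57 ± 0.10, adjusted p = 2.78e-04), Bmp4 (-0.36 ± 0.14, adjusted p = 0.0441) and Wnt5a were lower. The call of Bmp4 was lost without CAST_142, CAST_200, CAST_201, CAST_202, CAST_203, WSB_135, WSB_147 or WSB_169 (adjusted p of 0.0554 to 0.0953) and that of Plpp3 without CAST_170, CAST_201, CAST_202, WSB_120 or WSB_169 (adjusted p of 0.0501 to 0.0544).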

How the data were processed

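Read counts per gene from brains of 12 mice, numbered as separate animals, were deposited by the authors as 24 files of raw counts, 1 per animal and lane, and lanes 5 and 6 were summed. Per the submitters' processing notes, TopHat2 2.1.1, cutadapt, HTSeq and DESeq2 were used. Which build, annotation and strand option were used is not given in the sources used here. Of 53465 listed gene IDs, 53360 matched GENCODE M21, which gave symbols. Between 32.0% and 37.1% of the deposited counts per animal were in counters that name no gene, and these were left out. Reads without a unique alignment made up 15.6% to 16.1% of the counts in CAST and 17.0% to 17.5% in WSB. The counter of reads not aligned is at 0 in every animal, so reads lost in alignment cannot be compared between strains. The part of alignment in the strain differences was not tested.

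Strain was tested with edgeR 4.0.16 (quasi-likelihood test, TMM scaling, low counts filtered by strain, R 4.3.3) on all genes, with Benjamini-Hochberg adjustment and a threshold of 0.05, and again with centred log2 CPM of Ttr as a covariate. Log2 CPM used a prior count of 0.5. Standard errors were taken from the fold change and its F value. Exact permutation tests used strain labels for ratios and animals within strains for correlations (Python 3.11.15, scipy 1.17.1). The procedure was tested on simulated data. A p-value of edgeR or DESeq2 sets a difference or slope against the spread between these animals, and an exact p sets it against permutations of them.

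The genes named are the 10 members, the 8 called choroid plexus genes with the smallest p and the 4 most abundant of the second list, the 10 genes most like Ttr, and up to 2 called genes of each partner list; Lrp2, Folr2, Fgfr4 and Wnt5a, and the genes of the second list named for their slope on Ttr, were named after their values were seen. The members and lists were chosen with earlier results of these data known. Some genes of the partner lists are counted in the totals but not reported here by name. Alternatives were RLE scaling, no filter, each lane alone, DESeq2 1.42.0, a prior count of 2, other references in place of Ttr, each animal left out, and CAST_142 and WSB_100 left out.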

Additional observations from a re-analysis of the deposited data

Results flagged for a closer look

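In 7 of 38 groups of 6 animals searched, 1 animal lay apart from the other 5 by more than the critical gap, where chance gives about 1 in 20 groups. Aqp1 was at 2.14 CPM in WSB_169, where the nearest WSB animal was at 4.88 CPM. Otx2 was at 11.5 CPM in CAST_142, where the nearest CAST animal was at 5.01 CPM.

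The other 5 are log2 ratios to Ttr in WSB_100, which has the lowest Ttr, and so share 1 denominator. They were -2.34 for Kl (nearest WSB animal -3.98), -2.22 for Aqp1 (nearest -6.20), -0.53 for Clic6 (nearest -3.44), -4.99 for Otx2 (nearest -6.58) and 2.70 for Enpp2 (nearest 0.59).

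The slope on Ttr differed between CAST and WSB for Aqp1 (1.01), Clic6 (0.69) and Otx2 (-1.50, log2 per doubling of Ttr) by a test of the difference itself. Without CAST_142 the differences were 0.94, 0.47 and -1.12, and none was called. Without CAST_142 and WSB_100, Otx2 was called (-1.34, adjusted p = 0.0291 by edgeR) and Aqp1 (0.19) and Clic6 (0.20) were not.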

How the results depend on the processing

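No paired analysis was possible because the strains share no animal numbers. Of the 10 genes, 2 differed between strains, 1 without the low count filter and 1 to 3 with 1 animal left out; 3 did without CAST_142 and WSB_100. Of 9 genes given Ttr, 3 were called, 5 with either other reference and 3 to 4 with 1 animal left out. For the other references no share of all genes is at hand to set beside the 5. Without CAST_142 and WSB_100, slope calls were 3 in the 9 genes and 3 in the other choroid plexus genes (4 to 13 with 1 animal left out), and 1 slope difference was called (0 to 3). Ratio calls were 3, and 5 against the mean of the other members (3 to 4 with 1 animal left out), with no share of all genes at hand. Other choroid plexus calls were 7 to 11. DESeq2 called 44.8% of all genes and 2 of the 10. Directions turned without CAST_142 and WSB_100 for Aqp1 (0.0375), Otx2 (-0.16), Aqp1 given Ttr (0.24) and its ratio (0.29). Slc4a5 was at 0.0847 on lane 6 alone. Folr1 given the second list was at 0.0763, Sostdc1 given the 2 other references at 0.31 and 0.33, and its ratio at 0.23. With 1 animal left out, ranges crossing 0 were Slc4a5 -0.28 to 0.15, Aqp1 given Ttr -0.39 to 0.24, Otx2 given Ttr -0.0904 to 0.79, Otx2 slope -0.37 to 0.56, Otx2 r -0.19 to 0.92, Slc4a10 -0.0042 to 0.0445, Aqp1 ratio -0.66 to 0.28 and Otx2 ratio -0.17 to 0.66. The cause was not tested. Of 1623 single-gene values under alternatives, 1477 kept direction and side of the threshold. Depth limits Folr1, with 3 reads in WSB_100.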
